A study of Mus musculus with 12 samples.

Results

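The mRNAs described here encode the 3 mammalian TGF-β ligands (Tgfb1, Tgfb2 and Tgfb3), the 4 latent TGF-β binding proteins (Ltbp1, Ltbp2, Ltbp3 and Ltbp4) and the cell-surface holders of latent TGF-β (Lrrc32, also called GARP, and Nrros, also called LRRC33). They were listed by gene symbol for their place in TGF-β latency, by a rule that uses no measured value, at a time when earlier results of these data were known, and are 9 of the 45859 genes in the deposited tables. The study asked how deletion of the β8 integrin gene from the lens alters the response of lens cells to cataract surgery in mice. RNA was sequenced from lens capsules with the lens epithelial cells (LCs) still attached, after a surgery that removed the fiber cells through the cornea, and the series holds 12 libraries, 3 in each of 4 groups, each made from 5 pooled capsules.

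The first pair of groups came from wild type (WT) C57BL/6 mice, and their capsules were taken at 0 hours or at 24 hours post cataract surgery (PCS). The second pair came from β8ITG-cKO mice at the same times, in which Itgb8 alleles carrying loxP sites around exon 4 were recombined by MLR10-cre, a transgene active in all lens cells from the lens vesicle stage. All mice were 2 months old, all had surgery, and the 0 hour capsules were the baseline of each genotype. The β8ITG-cKO mice are on a mixed C57BL/6 and 129S1/Sv background and the WT labels name no Cre, so that genotype cannot be told apart from strain or from the presence of Cre in any comparison of the 2 genotypes.

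TGF-β is secreted in an inactive form, in which the mature cytokine stays enclosed by its own propeptide. This latent pair is joined by a disulfide bond to LTBP1, LTBP3 or LTBP4 and stored on fibrillin and fibronectin, whereas LTBP2 belongs to the same family but does not bind latent TGF-β. LRRC32 on regulatory T cells and platelets, and NRROS on macrophages and microglia, hold latent TGF-β at the cell surface instead. The αV integrins, αVβ8 and αVβ6 among them, bind an RGD motif in the propeptides of TGF-β1 and TGF-β3 and release the cytokine, and the TGF-β2 propeptide lacks that motif. In the lens, TGF-β drives epithelial cells toward the myofibroblast and fibrotic state seen in posterior capsular opacification.

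Upstream sequences are shown for the 3 members with the largest rises in WT LCs described below, so that the letters in front of the genes can be seen beside their values. They come from RefSeq on build GRCm38.p6, run 5′ to 3′ on the strand of the gene, and are in lower case with matches to searched motifs in capitals. The 250 bases before the start were searched on both strands for 7 motifs, which were the cyclic AMP response element TGACGTCA, the AP-1 site TGANTCA, the GC box GGGCGG, the E-box CACGTG, the TATA box TATAAA, the Smad element CAGACA and the TEAD site GGAATG.
Tgfb1, chr7:25686752-25687001, plus strand: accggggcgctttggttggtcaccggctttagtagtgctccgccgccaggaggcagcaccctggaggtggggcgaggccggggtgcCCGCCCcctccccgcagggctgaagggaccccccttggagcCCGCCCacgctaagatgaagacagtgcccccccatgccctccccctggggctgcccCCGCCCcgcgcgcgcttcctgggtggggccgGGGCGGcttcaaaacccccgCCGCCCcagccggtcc
Tgfb2, chr1:186706013-186706042, minus strand: aaCACGTGgtttggggagcacaTATAAAac
Ltbp1 long form, chr17:75005279-75005479, plus strand: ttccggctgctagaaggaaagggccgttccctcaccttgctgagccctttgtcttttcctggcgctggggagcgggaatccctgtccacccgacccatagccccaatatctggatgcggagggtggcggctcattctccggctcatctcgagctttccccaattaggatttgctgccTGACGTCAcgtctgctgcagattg
Ltbp1 short form, chr17:75178531-75178780, plus strand: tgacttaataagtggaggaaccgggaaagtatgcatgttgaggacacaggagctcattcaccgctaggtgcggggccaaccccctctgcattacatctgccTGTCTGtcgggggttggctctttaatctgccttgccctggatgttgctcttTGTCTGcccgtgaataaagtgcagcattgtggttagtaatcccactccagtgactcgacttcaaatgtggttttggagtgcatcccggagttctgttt

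The 2 ligand promoters are unlike each other in sequence. The Tgfb1 window was 75.2% G and C and held 5 GC boxes, a motif found in 32.7% of the 32851 windows of the same length in the table, and none of the other 6 motifs. The Tgfb2 window was 53.6% G and C and held no GC box, but held an E-box 51 to 46 bases before the start and a TATA box 31 to 26 bases before it, and these motifs occur in 6.02% and 12.4% of windows. A Smad element, found in 17.1% of windows, lay 204 to 199 bases before the Tgfb2 start, outside the 30 bases printed, because other RefSeq models of Tgfb2 begin farther upstream.

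Ltbp1 has separate starts for its long and short forms, and their windows shared none of the 7 motifs. The long form window held a cyclic AMP response element 73 to 66 bases before the start, a motif found in 1.55% of windows. The short form window, which lies inside an intron of the long form, held 2 Smad elements. The deposited values are per gene and do not separate the 2 forms. Of the 9 members, 7 had a window in the table. Ltbp2 held 2 GC boxes, the 3 windows of Ltbp4 held 3 to 7, and the windows of Ltbp3 and Nrros held none of the 7 motifs. A match is a string of letters and not a measured binding site.

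The values are FPKM, fragments scaled to transcript length and to the number of mapped fragments, a measure per length that allows the levels of different genes to be set side by side. The depth of the libraries is not given in the files. From the steps of low values it ran from 0.871 to 1.093 relative to the first WT library at 0 hours. The 10 highest genes took 36.0% to 49.6% of summed FPKM. Lens epithelial markers were present in every group, but the second WT library at 0 hours listed Cryaa at 0 and had the highest summed retinal markers (1182 FPKM over 12 genes, against 357 and 148 in the other WT libraries at 0 hours). Retinal markers were also high in all β8ITG-cKO libraries at 24 hours (843 to 1011 FPKM, against 76.8 to 152 in WT libraries at 24 hours). Summed lens epithelial markers (7 genes) were lower in those libraries, at 11610 to 14070 FPKM against 18010 to 21630 in WT libraries at 24 hours. Summed lens fiber markers (7 genes) were lower too, at 7236 to 9598 against 11100 to 15640 FPKM. By limma 1 of the 7 epithelial genes (Cdh1) and 0 of the 7 fiber genes passed as lower, beside 0.644% of all genes. Itgb8 itself measured 7.26, 10.78 and 8.42 FPKM in WT LCs at 0 hours, 9.08, 8.38 and 9.58 in WT LCs at 24 hours, 6.83, 4.58 and 7.31 in β8ITG-cKO LCs at 0 hours, and 9.28, 11.83 and 10.28 in β8ITG-cKO LCs at 24 hours. These gene-level values count fragments from every exon, and loss of exon 4 cannot be seen in them, so they do not check the genotype labels.

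**Figure D1:**
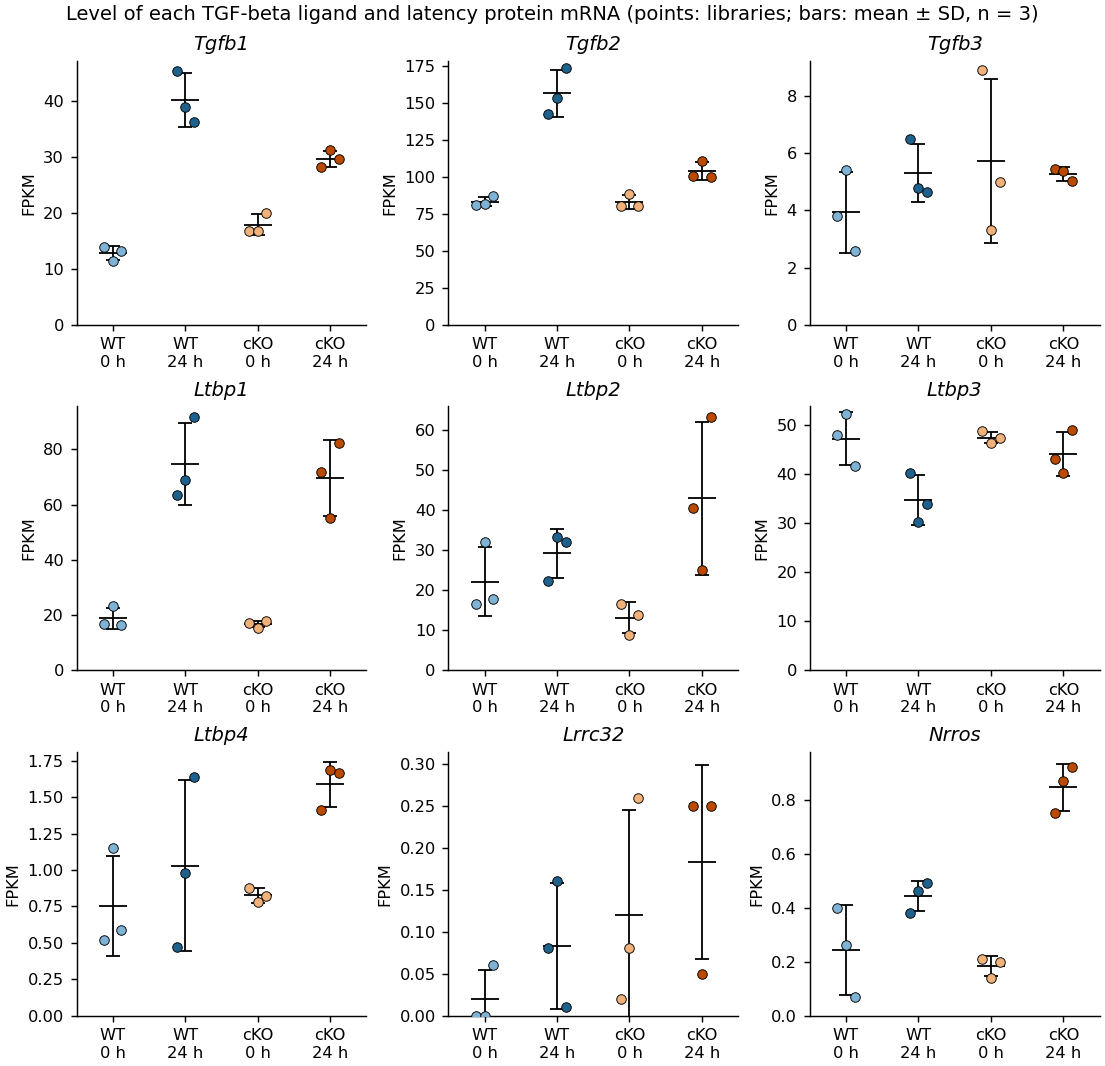
FPKM of each of the 9 mRNAs (vertical axes, each starting at 0) in WT and β8ITG-cKO (cKO) capsules at 0 and 24 hours PCS. Points are libraries and bars are mean ± SD (n = 3, cut at 0 where the SD passes it). Tgfb1, Tgfb2 and Ltbp1 were higher in every 24 hour library than in every 0 hour library of the same genotype, and Lrrc32 stayed at or below 0.26 FPKM.

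Tgfb2 was the most abundant of the 9 mRNAs in all 4 groups, and its range did not overlap that of the next member in any of them. At 0 hours in WT LCs it averaged 83.1 ± 3.16 FPKM (SD, n = 3), above Ltbp3 at 47.3 ± 5.40 FPKM, Ltbp2 at 22.1 ± 8.57, Ltbp1 at 18.8 ± 3.81, Tgfb1 at 12.8 ± 1.26 and Tgfb3 at 3.94 ± 1.42. Ltbp2 and Ltbp1 overlapped in that order and the other neighbours did not. Ltbp4 averaged 0.751 ± 0.346 FPKM, Nrros 0.246 ± 0.166 and Lrrc32 0.0208 ± 0.0359. At 24 hours PCS Ltbp1 held the second place by mean in both genotypes. In WT LCs it overlapped no other member, and Tgfb1 (40.1 ± 4.76 FPKM), Ltbp3 (34.8 ± 5.05) and Ltbp2 (29.1 ± 6.07) followed, each overlapping the next. In β8ITG-cKO LCs Ltbp3 (44.1 ± 4.50 FPKM), Ltbp2 (42.9 ± 19.1) and Tgfb1 (29.6 ± 1.46) followed, and the wide range of Ltbp2 overlapped those of Ltbp1, Ltbp3 and Tgfb1.

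In WT LCs at 24 hours PCS, Tgfb1, Tgfb2 and Ltbp1 rose, and no member fell past the test (limma on log2(FPKM + 1), Benjamini-Hochberg adjusted p at most 0.05 over 15146 genes). These are 3 of the 7 members with enough signal to be tested, beside 20.9% of all genes tested that rose and 8.81% that fell (14.4% and 16% after rescaling all libraries to the same median, which took out a shift of the median gene). The median change of the 7 members was 0.42 on the log2 scale, against 0.16 over all genes tested. The groups of 4 of the 7 did not overlap (Tgfb1, Tgfb2, Ltbp1 and Ltbp3), beside 46.9% of genes. By the study's criteria as well (a difference over 2-fold and over 2 FPKM), 2 members rose, Tgfb1 and Ltbp1, beside 10.3% of genes. In β8ITG-cKO LCs the same comparison gave rises of Tgfb1, Tgfb2, Ltbp1, Ltbp2, Ltbp4 and Nrros, 6 of 8 members tested, beside 35.4% of 15237 genes that rose and 10.7% that fell (21.3% and 19.9% after rescaling). The median change there was 0.57 for the members and 0.23 for all genes. Nrros entered that test only through its 24 hour level, so it adds nothing to that count. The groups of the 6 that rose did not overlap, beside 56.9% of genes, and 2 of them, Ltbp1 and Ltbp2, met the study's criteria, beside 11.3% of genes. After rescaling, the same 3 members rose in WT LCs and Ltbp3 fell (limma adjusted p = 0.012). In β8ITG-cKO LCs rescaling kept the rises of Tgfb1, Ltbp1, Ltbp2 and, barely, Ltbp4 (limma adjusted p = 0.048). Tgfb2 did not pass there (adjusted p = 0.88), Ltbp3 fell (adjusted p = 0.0069) and Nrros was not tested.

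Tgfb1, the ligand best known from wound healing and immune cells, rose after surgery in both genotypes. It measured 13.82, 11.40 and 13.21 FPKM in WT LCs at 0 hours and 45.37, 38.79 and 36.13 FPKM at 24 hours. In β8ITG-cKO LCs it measured 16.81, 16.78 and 19.98 FPKM at 0 hours and 28.22, 31.14 and 29.51 FPKM at 24 hours. The 4 groups did not overlap at any point, and the order from low to high was WT at 0 hours, β8ITG-cKO at 0 hours, β8ITG-cKO at 24 hours and WT at 24 hours. The rise was 3.13-fold in WT LCs (log2 change 1.57, SE 0.15, limma adjusted p = 0.00054) and 1.66-fold in β8ITG-cKO LCs (log2 change 0.70, SE 0.10, adjusted p = 0.0011). Relative to the median gene the changes were 1.41 and 0.47 on the log2 scale.

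The genotypes crossed over for Tgfb1. At 0 hours all β8ITG-cKO libraries lay above all WT libraries (1.39-fold, log2 difference 0.45, limma adjusted p = 0.066), and at 24 hours all lay below them (log2 difference −0.42, 95% interval −0.73 to −0.11, adjusted p = 0.12). Neither difference passed the test when the pair of groups was fitted alone. With 1 fit over all 4 groups the difference at 24 hours had an adjusted p of 0.047. The change over time did differ between genotypes, by −0.87 on the log2 scale (95% interval −1.24 to −0.50, limma adjusted p = 0.011), in a comparison in which 9.39% of 15262 genes tested passed and 2.56% passed in that direction (4.26% after rescaling).

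Summed markers of immune cells and platelets were set beside Tgfb1. At 24 hours, of the neutrophil, platelet, macrophage and T cell sums, only that of neutrophils was lower in β8ITG-cKO than in WT LCs without overlap. Outside these cell types, the sums of lens epithelial, lens fiber and pigment cell markers were lower there without overlap as well. The platelet and macrophage sums of the genotypes overlapped at that time. The summed neutrophil markers (8 genes) lay between 0.511 and 0.714 FPKM in WT LCs at 0 hours and between 45.5 and 64.4 FPKM at 24 hours, and between 0.459 and 1.41 FPKM and between 11.99 and 34.7 FPKM in β8ITG-cKO LCs at those times. Of these 8 genes, Csf3r, Retnlg, S100a8, S100a9 and Cxcr2 could be tested in WT LCs only through their levels at 24 hours. Their averages at 0 hours lay below the 0.5 FPKM needed for a test, so the rise of all 5 is a description. Ly6g, Mpo and Elane were listed at 0 in all 12 libraries. The summed platelet markers (5 genes) lay between 2.39 and 6.195 FPKM at 0 hours and between 10.3 and 16.1 FPKM at 24 hours in WT LCs, and between 1.68 and 3.34 and between 9.32 and 15.99 FPKM in β8ITG-cKO LCs. Summed macrophage markers (8 genes) lay between 5.03 and 11.7 FPKM and between 11.9 and 18.8 FPKM in WT LCs, and between 5.17 and 8.56 FPKM and between 12.6 and 24.6 FPKM in β8ITG-cKO LCs. Of the 5 tested in WT LCs, Cd68 and Ptprc rose from averages under 0.5 FPKM at 0 hours. C1qa, C1qb and Csf1r did not rise (log2 changes −0.40, −0.13 and −0.12), and none of these passed the test. Summed T cell markers did not exceed 0.439 FPKM in any library. The WT library at 0 hours with the highest retinal sum had the lowest Tgfb1 value of its group (11.40 FPKM). The part of these cells and of retinal RNA in the Tgfb1 values was not tested. In bulk tissue fewer cells of a type and less RNA per cell cannot be told apart.

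Tgfb2, the main ligand of the lens and the aqueous humor, lay close between genotypes before surgery and apart after it. At 0 hours it measured 80.84, 81.81 and 86.73 FPKM in WT LCs and 80.10, 88.60 and 80.18 FPKM in β8ITG-cKO LCs, and the log2 difference was −0.0038 with a 95% interval from −0.23 to 0.22. At 24 hours it measured 142.39, 153.42 and 173.48 FPKM in WT LCs and 100.83, 110.90 and 99.92 FPKM in β8ITG-cKO LCs, so that the β8ITG-cKO values all fell short of the lowest WT value and all exceeded the 0 hour values. The rise in WT LCs was 1.88-fold (log2 change 0.90, SE 0.14, limma adjusted p = 0.0039). The rise in β8ITG-cKO LCs was 1.25-fold (log2 change 0.32, SE 0.095, adjusted p = 0.026), but only 0.093 on the log2 scale relative to the median gene. When libraries were rescaled to the same median it was 0.023 (adjusted p = 0.88), and leaving out β8ITG-cKO replicate 1 or 3 at 0 hours or replicate 2 at 24 hours also ended the call (adjusted p up to 0.099).

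The difference of Tgfb2 between genotypes at 24 hours was −0.58 on the log2 scale (95% interval −0.91 to −0.26), or 1.51 times as much in WT LCs, and missed the threshold in the fit of that pair of groups (limma adjusted p = 0.054). It passed with 1 fit over all 4 groups (adjusted p = 0.0068) and, barely, after rescaling (0.0498). The change over time differed between genotypes by −0.58 (95% interval −0.91 to −0.24, adjusted p = 0.037). That call is close to the threshold, and it was lost in 8 of the 12 fits that left out 1 library (adjusted p up to 0.097), although the difference stayed between −0.64 and −0.50. The summed retinal markers were high in the β8ITG-cKO libraries at 24 hours, as given above. In the WT library at 0 hours with the highest retinal sum, Tgfb2 (81.81 FPKM) lay between its replicates. The part of retinal RNA in the Tgfb2 values was not tested.

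Tgfb3, the remaining ligand, was low and variable. It measured 3.82, 5.41 and 2.58 FPKM in WT LCs at 0 hours and 6.48, 4.78 and 4.64 FPKM at 24 hours. In β8ITG-cKO LCs it measured 8.90, 3.30 and 4.99 FPKM at 0 hours and 5.46, 5.36 and 5.01 FPKM at 24 hours. All 4 groups overlapped, and the widest spread was among the β8ITG-cKO libraries at 0 hours. The log2 change after surgery was 0.38 in WT LCs (95% interval −0.17 to 0.93) and −0.015 in β8ITG-cKO LCs (95% interval −0.64 to 0.61). Its 3′ end overlaps Ttll5 on the opposite strand. The libraries were made with a stranded kit, but whether strand was used in counting is not given in the sources used here, so fragments of Ttll5 in the Tgfb3 value, and of the antisense genes Gm29491 at Tgfb2 and D030025P21Rik at Ltbp2, cannot be told apart.

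**Figure D2:**
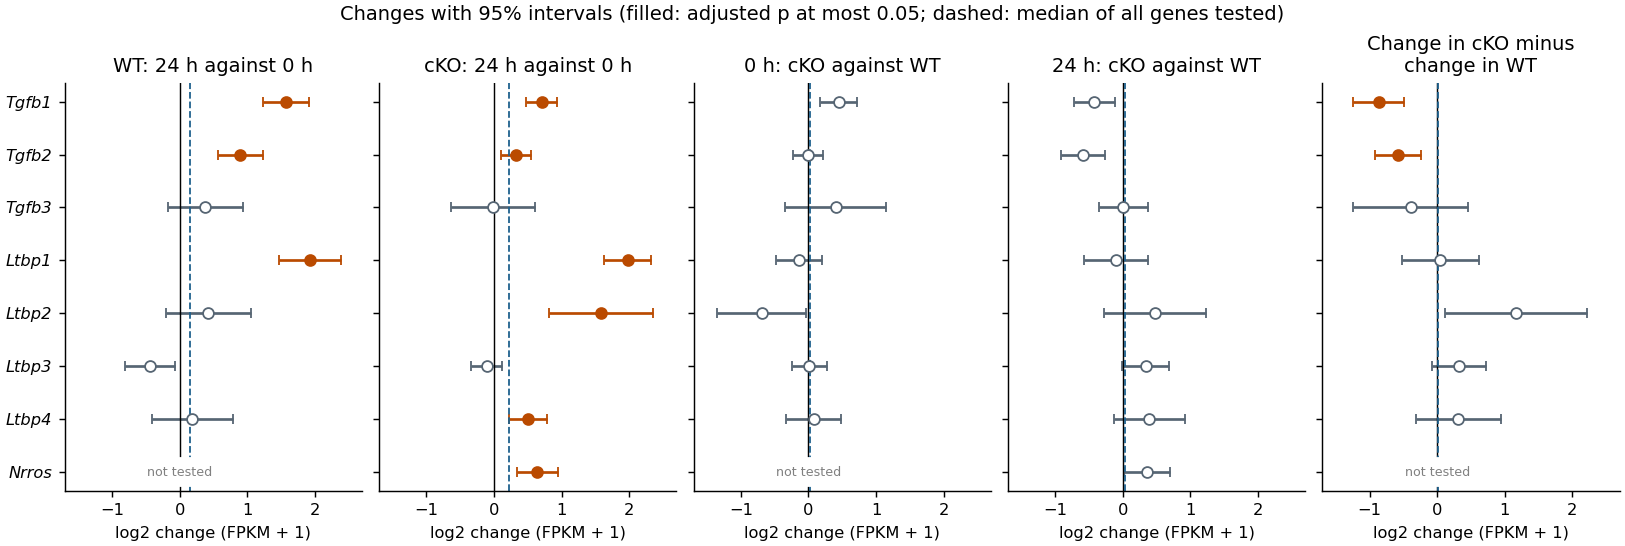
Log2 changes of FPKM + 1 (horizontal axes) with 95% intervals for the 8 members tested in at least 1 comparison, in 5 panels. Filled points passed an adjusted p of 0.05, and the dashed line is the median of all genes tested. Ltbp1 changed by 1.93 in WT and 1.98 in cKO capsules, whereas Tgfb1 and Tgfb2 lay further right in WT than in cKO capsules.

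The ligand pool as a whole followed Tgfb2. The summed FPKM of the 3 ligands was 98.5 to 102.5 in WT LCs at 0 hours and 194 to 214 at 24 hours, and 105 to 109 and 134 to 147 in β8ITG-cKO LCs. Tgfb2 made up 83.2% ± 1.28 of the ligand FPKM in WT LCs at 0 hours and 77.4% ± 3.86 at 24 hours, and 77.8% ± 3.21 and 74.8% ± 0.470 in β8ITG-cKO LCs (SD, n = 3). These shares are taken within a library and do not depend on how libraries were scaled. The share was lower at 24 hours than at 0 hours in both genotypes and lower in β8ITG-cKO LCs than in WT LCs at 0 hours, without overlap in each case (exact permutation test, two-sided, p = 0.1, the smallest that 3 against 3 libraries allow, and 0.16 when adjusted over the 8 tests of shares and ratios). At 24 hours the genotypes overlapped (p = 0.4 by the same exact test). The share of Tgfb1 was 12.8% ± 1.24 and 20.0% ± 3.26 in WT LCs at 0 and 24 hours, and 16.8% ± 1.94 and 21.4% ± 0.522 in β8ITG-cKO LCs.

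Ltbp1, which carries the latent ligand to the extracellular matrix, had the largest log2 change of FPKM + 1 among the members tested in both genotypes. As a plain ratio of FPKM, that of Nrros in β8ITG-cKO LCs was larger (4.62-fold), at levels under 1 FPKM. Ltbp1 measured 16.64, 23.19 and 16.55 FPKM in WT LCs at 0 hours and 63.53, 68.87 and 91.75 FPKM at 24 hours. In β8ITG-cKO LCs it measured 17.08, 15.41 and 17.74 FPKM at 0 hours and 71.82, 55.14 and 82.24 FPKM at 24 hours. The times did not overlap in either genotype, and the genotypes overlapped at both times. The rise was 3.98-fold in WT LCs (log2 change 1.93, SE 0.20, limma adjusted p = 0.00074) and 4.16-fold in β8ITG-cKO LCs (log2 change 1.98, SE 0.15, adjusted p = 5.7e-05). The 2 rises differed by 0.044 on the log2 scale, with a 95% interval from −0.52 to 0.61, so that a difference of the size seen for Tgfb2 (−0.58) lay just outside that interval.

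Ltbp2, the family member that does not bind latent TGF-β, was the most variable of the abundant members. It measured 16.57, 31.94 and 17.68 FPKM in WT LCs at 0 hours and 22.15, 33.22 and 32.01 FPKM at 24 hours. In β8ITG-cKO LCs it measured 16.47, 8.84 and 13.83 FPKM at 0 hours and 40.55, 25.13 and 63.12 FPKM at 24 hours. The times overlapped in WT LCs (log2 change 0.42, 95% interval −0.20 to 1.05, limma adjusted p = 0.27) and did not in β8ITG-cKO LCs, where Ltbp2 rose 3.29-fold (log2 change 1.59, SE 0.33, adjusted p = 0.0061). The difference between those changes was 1.17 (95% interval 0.12 to 2.21) and did not pass the test (adjusted p = 0.16). The second WT library at 0 hours, the one with the highest retinal sum, had the highest Ltbp2 and Ltbp1 values of its group. Without it the Ltbp2 change in WT LCs was 0.71 (adjusted p = 0.057). The β8ITG-cKO libraries at 24 hours, where Ltbp2 was highest, had the high retinal sums given above, and the part of retinal RNA in the Ltbp2 values was not tested.

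Ltbp3, which also carries latent TGF-β1, did not follow Ltbp1. It measured 47.97, 52.29 and 41.57 FPKM in WT LCs at 0 hours and 40.24, 30.27 and 33.83 FPKM at 24 hours, and the times did not overlap. In β8ITG-cKO LCs it measured 48.71, 46.40 and 47.30 FPKM at 0 hours and 43.00, 40.23 and 49.02 FPKM at 24 hours, and the times overlapped. The log2 change was −0.44 in WT LCs (95% interval −0.81 to −0.064, limma adjusted p = 0.076) and −0.11 in β8ITG-cKO LCs (adjusted p = 0.40), and neither passed. Relative to the median gene the changes were −0.59 and −0.34. After rescaling to the same median both passed, with changes of −0.69 (adjusted p = 0.012) and −0.40 (adjusted p = 0.0069), and in 1 fit over all 4 groups the change in WT LCs passed (adjusted p = 0.019).

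Ltbp4, the remaining carrier of latent TGF-β, was low in every group. It measured 0.52, 1.15 and 0.59 FPKM in WT LCs at 0 hours, 0.47, 0.98 and 1.64 at 24 hours, 0.88, 0.78 and 0.82 in β8ITG-cKO LCs at 0 hours, and 1.41, 1.69 and 1.67 at 24 hours. The times did not overlap in β8ITG-cKO LCs, where the log2 change was 0.50 (SE 0.12, limma adjusted p = 0.012), and overlapped in WT LCs (log2 change 0.19, adjusted p = 0.61). With 1 fit over all 4 groups the change in β8ITG-cKO LCs no longer passed (adjusted p = 0.071). At such levels the added 1 FPKM makes a log2 change smaller than the ratio of the values, which was 1.93-fold.

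**Figure D3:**
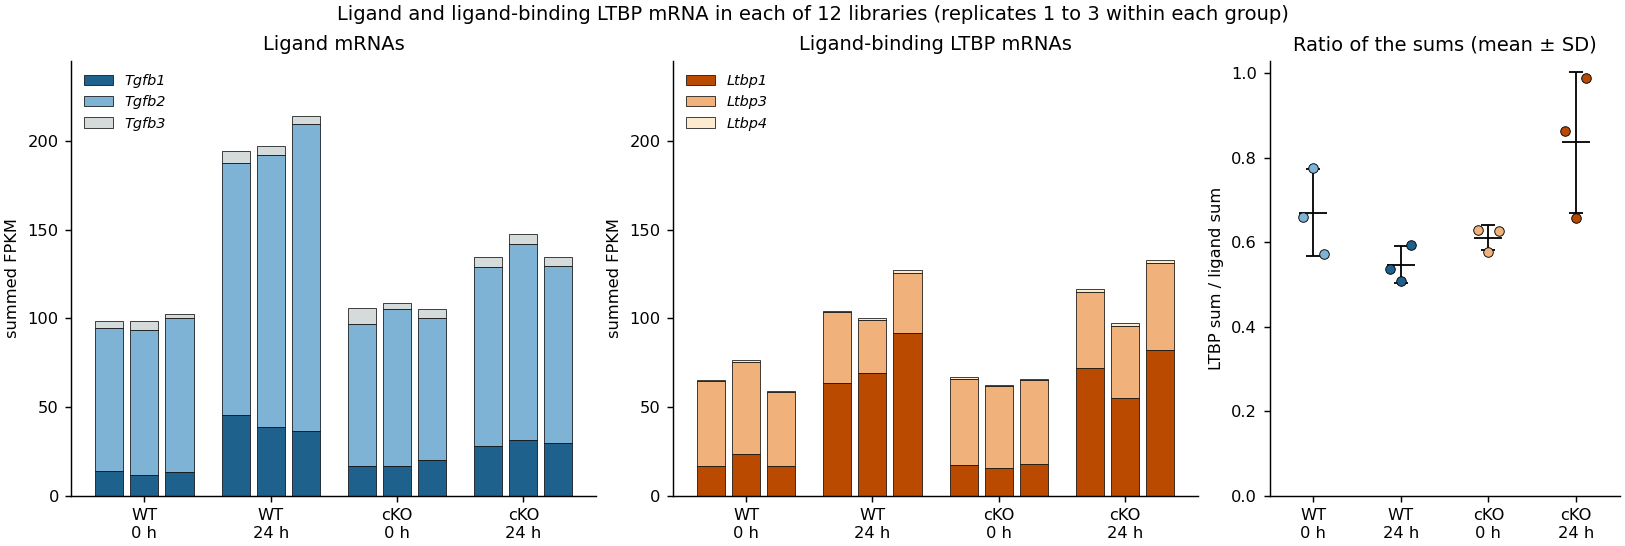
Summed FPKM (vertical axes of the stacked bars) of the 3 ligands and of Ltbp1, Ltbp3 and Ltbp4 in each of the 12 libraries, and the ratio of the latter sum to the former (points are libraries, bars are mean ± SD, n = 3; cKO is β8ITG-cKO). The LTBP sums of the 24 hour groups overlap, the ligand sums do not, and the ratio is 0.508 to 0.594 in WT against 0.658 to 0.989 in cKO capsules.

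The sum of the LTBPs that bind the latent ligands (Ltbp1, Ltbp3 and Ltbp4) overlapped between genotypes. It averaged 66.8 ± 9.08 FPKM in WT LCs and 65.0 ± 2.16 FPKM in β8ITG-cKO LCs at 0 hours, and 110.5 ± 14.6 and 115 ± 18.0 FPKM at 24 hours. Its make-up changed after surgery. Ltbp1 was 28% ± 2.36 of this sum in WT LCs at 0 hours and 67.3% ± 5.74 at 24 hours, and 25.7% ± 1.16 and 60.2% ± 2.90 in β8ITG-cKO LCs, with Ltbp3 as nearly all of the remainder. The ratio of Ltbp1 to Ltbp3 was 0.347 to 0.443 in WT LCs at 0 hours and 1.58 to 2.71 at 24 hours, and 0.332 to 0.375 and 1.37 to 1.68 in β8ITG-cKO LCs.

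Set against the ligands, these LTBPs were apart between genotypes at 24 hours, in a test that could not pass with 3 against 3 libraries. The ratio of the LTBP sum to the ligand sum was 0.661, 0.777 and 0.573 in WT LCs at 0 hours and 0.537, 0.508 and 0.594 at 24 hours. In β8ITG-cKO LCs it was 0.63, 0.576 and 0.626 at 0 hours and 0.864, 0.658 and 0.989 at 24 hours. At 24 hours all β8ITG-cKO libraries lay above all WT libraries, with means of 0.837 ± 0.167 and 0.546 ± 0.0436, and above all β8ITG-cKO libraries at 0 hours (exact permutation test, two-sided, p = 0.1 each, the smallest possible, adjusted p = 0.16). The times overlapped in WT LCs (p = 0.2 by the same exact test), as did the genotypes at 0 hours (p = 0.5). A ratio of mRNA levels is not a ratio of the proteins.

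Lrrc32 and Nrros, the cell-surface holders, were the lowest of the members. Lrrc32 was listed at 0 in 2 of the WT libraries at 0 hours and at no more than 0.26 FPKM in any library, and was never tested. Nrros measured 0.40, 0.26 and 0.07 FPKM in WT LCs at 0 hours and 0.38, 0.46 and 0.49 at 24 hours, and 0.21, 0.14 and 0.20 and then 0.75, 0.87 and 0.92 in β8ITG-cKO LCs. Its β8ITG-cKO libraries at 24 hours lay above every other library. Nrros reached the minimum level for a test only in comparisons that include those libraries, so the values are a description. Where counts of members elsewhere include Nrros, it adds nothing to them. Summed macrophage markers, given above, were higher at 24 hours than at 0 hours in both genotypes, although C1qa, C1qb and Csf1r did not rise in WT LCs. In β8ITG-cKO LCs 4 of 7 tested rose by limma, beside 35.4% of all genes. C1qa (1.40 to 3.77 FPKM) and Cd68 were among them, Aif1 and Ptprc rose from averages under 0.5 FPKM, and C1qb, Csf1r and Cx3cr1 did not pass. Between genotypes at 24 hours 0 of 7 passed. Summed endothelial markers (6 genes) lay between 1.41 and 2.11 FPKM in β8ITG-cKO LCs at 0 hours and between 5.76 and 7.74 FPKM at 24 hours. In WT LCs they lay between 0.926 and 4.78 FPKM at 0 hours and between 0.880 and 2.25 FPKM at 24 hours. The part of these cells in the Nrros values was not tested.

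Between genotypes no member passed the test at either time in the fits of 2 groups without rescaling. At 24 hours 0 of 8 members tested passed by limma, beside 6.29% of 15366 genes (5.64% higher and 0.644% lower). After rescaling these shares were 5.12% and 1.53%, and Tgfb2 passed barely (limma adjusted p = 0.0498). Without rescaling, 2 lower (Tgfb1 and Tgfb2) and 1 higher (Nrros) had an unadjusted p under 0.05. The same 3 had groups that did not overlap, beside 26.5% of all genes tested, and Nrros was tested there only through its β8ITG-cKO level and adds nothing to these counts. At 0 hours 0 of 7 members passed, beside 6.94% of 14708 genes (4.18% higher and 2.75% lower), with 1 higher (Tgfb1) and 1 lower (Ltbp2) at an unadjusted p under 0.05. Their groups did not overlap, as was the case for 30.8% of genes. Summed pigment cell markers (5 genes) were apart between genotypes as well, with 19.9 to 83.7 FPKM in WT LCs and 11.5 to 15.5 FPKM in β8ITG-cKO LCs at 0 hours, and 27.5 to 33.3 and 12.6 to 23.7 FPKM at 24 hours. The corneal stroma markers did not move together at 0 hours, since Aldh3a1 was higher in β8ITG-cKO LCs (734 against 240 FPKM), Dcn was lower (0.0934 against 2.40 FPKM), Col1a1 was 0.910 against 1.22 FPKM, and Kera and Lum did not exceed 0.18 FPKM in any library at that time. The part of these cells in the genotype differences was not tested. Ltbp2 at 0 hours was lower in β8ITG-cKO LCs by −0.69 on the log2 scale (95% interval −1.35 to −0.036, adjusted p = 0.19). In the test of whether the change over time differed between genotypes, 2 of 7 members (Tgfb1 and Tgfb2) passed, both with the smaller change in β8ITG-cKO LCs, beside 9.39% of all genes and 2.56% in that direction, and Tgfb2 was lost in 8 of 12 fits without 1 library.

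Genes that hold or activate latent TGF-β were followed as a list of 22. Of these, 19 were tested in WT LCs, where 9 rose and 2 fell (beside 20.9% and 8.81% of all genes), and 17 in β8ITG-cKO LCs, where 10 rose and 1 fell (beside 35.4% and 10.7%). Their median log2 change was 0.16 in WT LCs and 0.72 in β8ITG-cKO LCs, against 0.16 and 0.23 over all genes tested. In WT LCs Fn1, encoding fibronectin, the scaffold for LTBP1 deposition, rose from 2.75 to 112 FPKM (log2 change 4.73, limma adjusted p = 0.00051). Plau, the urokinase plasminogen activator, rose from 0.609 to 14.3 FPKM (log2 change 3.17). Fmod, encoding fibromodulin, a small proteoglycan that binds TGF-β, fell from 45.6 to 6.39 FPKM (log2 change −2.63). Between genotypes at 24 hours 0 of 18 such genes passed the limma test, beside 6.29% of all genes, and 1 had an unadjusted p under 0.05. At 0 hours 2 of 17 were higher in β8ITG-cKO LCs and 3 lower, beside 4.18% and 2.75% of all genes. The change over time differed for 2 of 19, both higher, beside 6.83% of all genes. Dcn, among those that passed in both tests, was tested at 0 hours only through its WT level.

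Receptors, Smads and their regulators were followed as a list of 17. Of these, 15 were tested in WT LCs, where 5 rose and 2 fell (median log2 change 0.12), and 16 in β8ITG-cKO LCs, where 6 rose and 1 fell (median 0.19). The shares of all genes are those given for the previous list, and the share that rose in β8ITG-cKO LCs is near that of all genes. In WT LCs the largest rises were those of Pmepa1, which sequesters Smads (8.08 to 41.3 FPKM, log2 change 2.14), the ubiquitin ligase Smurf1 (4.37 to 12.6 FPKM, log2 change 1.35) and the inhibitory Smad7 (7.76 to 17.6 FPKM, log2 change 1.05). The 2 that fell, named after their values were seen, were the inhibitory Smad6 (log2 change −0.79) and the pseudoreceptor Bambi (log2 change −0.72). At 24 hours 0 of 16 differed between genotypes by limma, beside 6.29% of all genes, and 1 had an unadjusted p under 0.05.

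Most target genes of TGF-β rose in both genotypes. Of 16 tested, 13 rose and 0 fell by limma in WT LCs (median log2 change 2.05, beside 20.9% and 8.81% of all genes), and the counts were the same in β8ITG-cKO LCs (median 2.16, beside 35.4% and 10.7%). At an unadjusted p under 0.05, 1 fell in WT LCs and 0 in β8ITG-cKO LCs. In WT LCs the matrix gene Tnc rose from 0.604 to 123 FPKM (log2 change 6.07) and Tgfbi from 3.35 to 187 FPKM (log2 change 5.48). At 24 hours 1 of 16 was lower in β8ITG-cKO LCs and 0 were higher, beside 0.644% and 5.64% of all genes, and 3 were lower at an unadjusted p under 0.05. The median log2 difference was −0.35, against 0.034 over all genes. At 0 hours 1 of 15 was higher in β8ITG-cKO LCs and 3 were lower, beside 4.18% and 2.75% of all genes. Fn1 and Thbs1 stand in both this list and that of the anchors and activators, and Smad7 and Pmepa1 in both this list and that of the receptors.

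**Figure D4:**
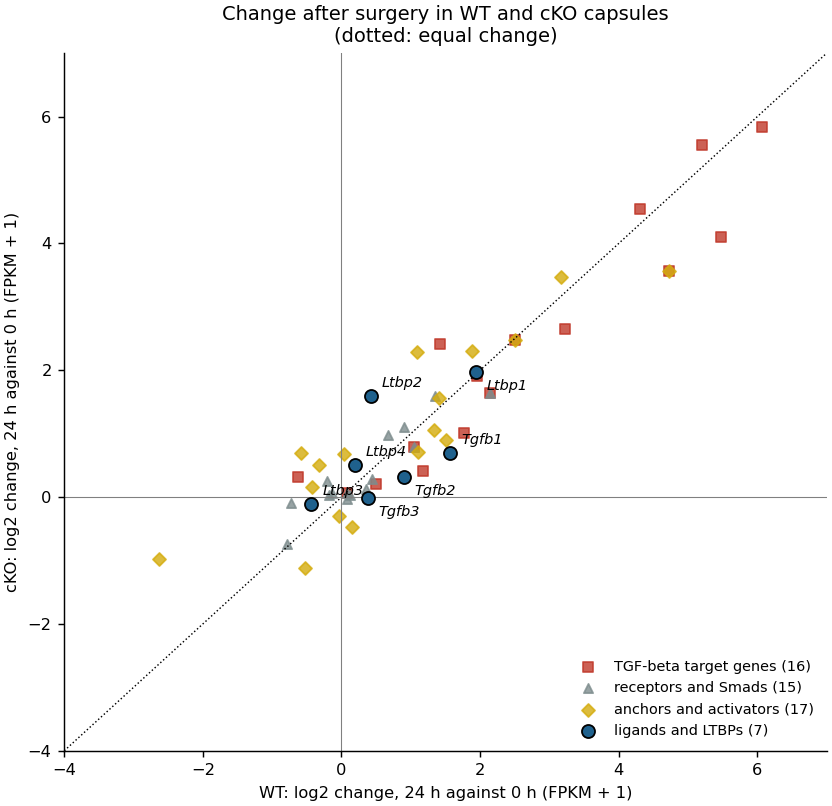
Log2 change of FPKM + 1 from 0 to 24 hours PCS in WT (horizontal axis) and β8ITG-cKO (cKO, vertical axis) capsules for 7 members and for the genes of 3 pathway lists, with a dotted line of equal change. Ltbp1 lies on the line, Tgfb1 and Tgfb2 lie below it, and Ltbp2 (0.42 in WT, 1.59 in cKO) lies above it.

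The genes whose FPKM followed each member most closely over the 12 libraries, among 7294 with a mean of at least 5 FPKM, differed from member to member. For Ltbp1 they were Lcn2, Steap4 and Cfb (Pearson r of 0.996, 0.995 and 0.989). For Tgfb1 they were Tspan4, Anxa2 and Plp2 (0.986, 0.985 and 0.985), and for Tgfb2 Ahnak, Cast and Cmss1 (0.979, 0.967 and 0.967). Ltbp2 was followed by Nid2, Bmp2 and Rhoj (0.968, 0.965 and 0.962) and Ltbp3 by Fam3a, Stag2 and Evl (0.922, 0.921 and 0.917). The closest gene was Prkaca for Tgfb3 (0.843) and Srrm3 for Ltbp4 (0.899). These values describe 12 points in 4 groups that share the time since surgery, and carry no test.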

How the data were processed

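FPKM values of 12 mouse RNA-seq libraries (stranded total RNA, SMARTer Pico kit) were taken from 4 tables deposited by the authors, who per the labels used FastQC, cutadapt 1.12, TopHat2 2.1.0 and Cuffdiff 2.2.1 with build mm10 (GRCm38.p5). Each table pairs 2 groups and lists every library, and values of a library were the same in both of its tables. Per the file headers the tables also hold group mean FPKM (16 columns), fold changes and p-values of the authors' own comparisons, and none of these were used. The numbers of replicates come from the labels. Replicates are separate pools of capsules, and p-values measure the spread between those pools.

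Values were tested as log2(FPKM + 1) with limma 3.58.1 (R 4.3.3, moderated, trend over the mean), for genes averaging 0.5 FPKM or more over the libraries fitted, in fits of 2 groups, and of 4 groups for the difference between genotypes in the change over time. The Benjamini-Hochberg threshold was 0.05. Shares and ratios were tested by exact permutation in scipy 1.17.1. The script was tested on simulated data. Alternatives were pseudocounts of 0.1 and 0.5, no filter, a minimum of 2 FPKM, rescaling to the same median, the study's criteria (over 2-fold, over 2 FPKM apart, at least 2 FPKM), a replicate block, 1 fit over all 4 groups and leaving out each library. Besides the members and Itgb8, the genes named were up to 3 per pathway list with the largest change past the test, at least 5 FPKM in 1 group and no overlap, in the WT time comparison and the genotype comparison at 24 hours, and the 3 genes most correlated with each ligand and LTBP. The sources used here do not give depth, and relative depth came from ratios of low values. The members and lists were chosen with earlier results of these data known. Sequences are from RefSeq tables (GRCm38.p6), and overlapping genes from GENCODE M21. Results of certain genes are not reported here.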

Additional observations from a re-analysis of the deposited data

Results flagged for a closer look

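The change of Tgfb1 from 0 to 24 hours PCS differed between genotypes, by −0.87 on the log2 scale (β8ITG-cKO minus WT, limma adjusted p = 0.011). It was 1.57 in WT LCs and 0.70 in β8ITG-cKO LCs, and every left-out library kept the call (adjusted p from 0.0096 to 0.033). The change of Tgfb2 differed by −0.58 (adjusted p = 0.037), being 0.90 in WT LCs and 0.32 in β8ITG-cKO LCs, and this call was lost in 8 of the 12 fits that left out 1 library. Strain background and Cre differ between the genotypes in the same way and cannot be told apart from the loss of Itgb8. Summed retinal markers differed at 24 hours too (843 to 1011 FPKM in β8ITG-cKO and 76.8 to 152 FPKM in WT libraries). Summed lens epithelial and lens fiber markers were lower in β8ITG-cKO than in WT libraries at that time. The part of retinal RNA and of the make-up of the lens cells in these 2 results was not tested.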

How the results depend on the processing

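The rises of Tgfb1, Tgfb2 and Ltbp1 in WT LCs and of Tgfb1, Ltbp1 and Ltbp2 in β8ITG-cKO LCs passed under every pseudocount, filter, scaling, block and left-out library tried. By the study's criteria 2 members, not 6, rose in β8ITG-cKO LCs, and the 6 include Nrros, which was tested only through its 24 hour level. Between genotypes at 24 hours 1 member passed after rescaling and 2 with 1 fit over all 4 groups, against 0. For the difference between genotypes in the change over time, 1 member passed after rescaling, 1 to 2 without single libraries, against 2. The cause was not tested. Same-numbered replicates did not deviate together (correlations from −0.22 to 0.082). The labels do not say whether the numbers mark shared animals or handling, and correlations from 3 libraries per group cannot decide it. With a replicate block 1 member passed that difference (Tgfb1, adjusted p = 0.025) and Tgfb2 did not (adjusted p = 0.061), and the block kept the other counts, at 3, 6, 0 and 0.

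Changes turned sign only for members that had not passed the test. After rescaling Tgfb3 differed by −0.049 between genotypes at 24 hours and Ltbp3 by −0.019 at 0 hours. Without single libraries the log2 values ran from −0.020 to 0.40 for Ltbp4 in WT LCs over time, from −0.30 to 0.31 for Tgfb3 in β8ITG-cKO LCs over time, from −0.067 to 0.14 for Tgfb3 and from −0.23 to 0.058 for Ltbp1 between genotypes at 24 hours, and, between genotypes at 0 hours, from −0.052 to 0.027 for Tgfb2, −0.22 to 0.010 for Ltbp1, −0.076 to 0.086 for Ltbp3 and −0.017 to 0.23 for Ltbp4. The difference in the change of Ltbp1 ran from −0.11 to 0.20. All 52 alternatives of the shares and ratios kept their direction. FPKM without depth give no counting error, which weighs most on Ltbp4, Nrros and Lrrc32, the members at the lowest levels.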
